A study of Rattus norvegicus with 6 samples.

Results

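Interferon-stimulated genes were read from 1-colour Agilent arrays of renal cortex, 1 array for each of 6 male Sprague-Dawley (Crl:CD(SD)) rats. The set held 43 genes, 32 known mainly as targets of type I interferon and 11 known mainly as targets of type II interferon. They were chosen by name, with earlier results of these data known. Probes were assigned to them through the accession that the scanner files give for each probe. This named 63 of the 61537 probes on the array, for 38 of the 43 genes. Of these 38, 37 were tested, 27 of type I and 10 of type II, among 32197 rows in all. Every tested member was well above background on all 6 arrays, so the filter on dim probes admitted none of them through 1 group alone. Ifit1 was well above background on 2 vehicle arrays and 1 treated array and was not tested. Ddx58, Gbp4, Xaf1, Herc6 and Samd9 had no probe named here.

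The vehicle group was 3 rats given corn oil for 4 weeks. The treated group was 3 rats given p-nitroanisole, a nitrobenzene with a methoxy group, at 500 mg/kg per day for 4 weeks. All 6 rats had been purchased at an age of 5 weeks. The tissue was bulk cortex and was checked on 8 proximal tubule markers, all of them tested, whose summed level lay between 1274 and 1303 times the array's 75th percentile with vehicle and between 1307 and 1389 times with treatment. No spot was saturated, and the share of probes well above background ran from 66.4% to 69.2% over the arrays. The 3 vehicle arrays and treated replicates 1 and 2 were on slide 1, and treated replicate 3 was on slide 2. Treated replicates 1 and 2 were on the second row of their slide and the other 4 arrays on the first row. No treated array thus shared both slide and row with a vehicle array, so treatment and array position cannot be told apart.

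Interferons are secreted proteins that cells release on sensing foreign or misplaced nucleic acid, and that put neighbouring cells into an antiviral state. Type I interferon acts through the receptor subunits Ifnar1 and Ifnar2 to assemble a complex with Stat2 and Irf9 that binds the interferon-stimulated response element (ISRE). Type II interferon, the product of T and NK cells, acts through Ifngr1 and Ifngr2 on genes with a gamma-activated site (GAS). The kinds are not exclusive, since genes such as Cxcl10, Gbp2 and Irf1 respond to both. Tubule, vascular and resident immune cells of the kidney can all respond to interferon.

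Most members were lower with p-nitroanisole, and the differences were of modest size. Of the 37 tested members, 33 were lower and 4 higher, against 47.6% of all rows lower. Since the members were chosen with earlier results known, the shares of all rows are given for description only. The median log2 difference was -0.27 (1 unit is a doubling), against 0.01 over all rows. In 14 members (37.8%) all 3 treated arrays lay below all 3 vehicle arrays, against 10.3% of all rows, and in 1 member, Rsad2, all 3 lay above, against 11.9%. No member passed limma's test across all rows at an adjusted p of 0.05, where 0.0248% of all rows were called lower, 0.0497% higher and 0.0745% in either direction. The smallest adjusted p among members was 0.108, that of Dhx58. At an unadjusted p under 0.05 there were 15 members lower (40.5%, against 5.76% of all rows) and 1 higher (against 7.69%). Without treated replicate 2 the groups of 22 members did not overlap on the lower side, instead of 14, while the share of all rows went from 10.3% to 16.8%, since fewer arrays separate more easily.

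**Figure D1:**
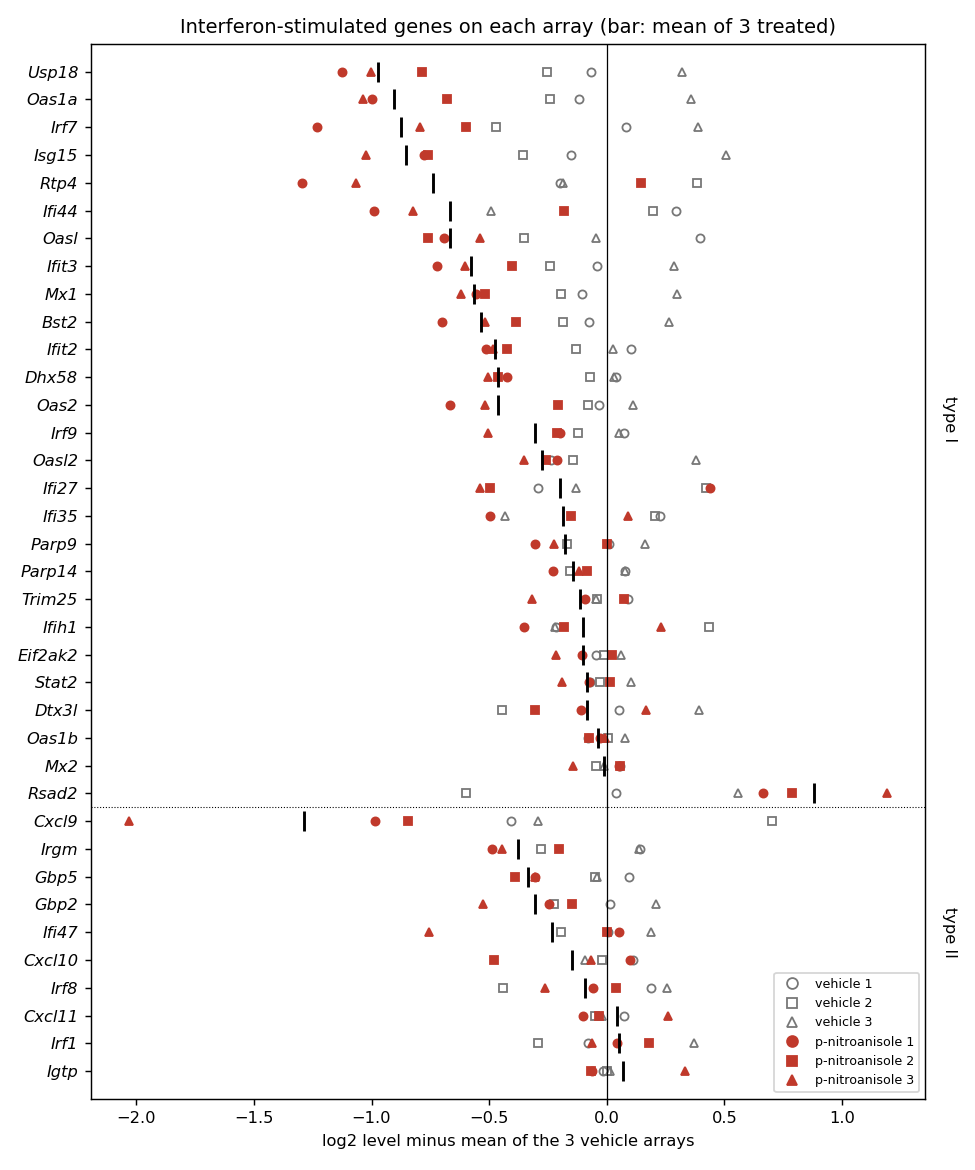
Log2 level of each tested member on each of the 6 arrays, as the difference from the mean of the 3 vehicle arrays (horizontal axis); open grey symbols are vehicle arrays, filled red symbols treated arrays, and the black bar is the treated mean. Type I members (upper 27) spread from Usp18 at -0.97 to Rsad2 at 0.88, and type II members (lower 10) from Cxcl9 at -1.29 to Igtp at 0.07.

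The tested type I members had a median log2 difference of -0.31 and the type II members one of -0.19. Among type I members 26 of 27 were lower and 12 had groups that did not overlap on the lower side. Among type II members 7 of 10 were lower and 2 did not overlap. Over all rows 47.6% were lower and 10.3% did not overlap on the lower side. On single arrays the type I median, as deviation from the vehicle mean, was -0.03, -0.13 and 0.08 with vehicle and -0.43, -0.21 and -0.50 with treatment. For type II it was 0.04, -0.12 and 0.08 with vehicle and -0.08, -0.11 and -0.28 with treatment. Thus the type I medians of the groups did not overlap, while treated replicates 1 and 2 lay inside the vehicle range for type II. The type I median was 0.11 below the type II median in log2, and over leaving out single arrays this gap ran from -0.23 to -0.04. The type II median was -0.32 without vehicle replicate 2 and -0.13 without treated replicate 3.

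The 250 bases before the start of 6 members are printed to show what their promoters share and where the measured differences part. They are from RefSeq, build GRCr8; the scanner headers name an older rat build, and no coordinate of theirs was used. Capitals mark the ISRE core, which is GAAA, any 2 bases and GAAA (on the other strand TTTC, any 2 bases and TTTC), and the GAS core TTCNNNGAA, which is its own complement. Oas1a and Oas1b are shown as paralogs on the same chromosome whose probes gave different results, Irf7 as a member that was lower, Rsad2 as the member that was higher, and Irgm and Irf1 as type II members.
Oas1a (chr12:41330216-41330465, plus strand): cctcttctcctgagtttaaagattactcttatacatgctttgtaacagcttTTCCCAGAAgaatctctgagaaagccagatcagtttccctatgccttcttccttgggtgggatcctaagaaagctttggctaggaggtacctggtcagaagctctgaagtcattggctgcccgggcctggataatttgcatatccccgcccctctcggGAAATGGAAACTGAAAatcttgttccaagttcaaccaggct
Oas1b (chr12:41395853-41396102, minus strand): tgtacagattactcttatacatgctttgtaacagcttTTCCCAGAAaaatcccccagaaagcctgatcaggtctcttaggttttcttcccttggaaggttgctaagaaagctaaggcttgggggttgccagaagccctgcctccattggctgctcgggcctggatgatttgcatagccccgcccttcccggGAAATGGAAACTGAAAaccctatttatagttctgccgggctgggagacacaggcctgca
Irf7 (chr1:205800024-205800273, minus strand): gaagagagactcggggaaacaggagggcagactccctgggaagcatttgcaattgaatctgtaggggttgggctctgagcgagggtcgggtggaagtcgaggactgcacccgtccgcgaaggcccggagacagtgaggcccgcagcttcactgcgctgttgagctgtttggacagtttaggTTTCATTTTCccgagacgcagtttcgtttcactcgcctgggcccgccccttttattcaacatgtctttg
Rsad2 (chr6:48788121-48788370, minus strand): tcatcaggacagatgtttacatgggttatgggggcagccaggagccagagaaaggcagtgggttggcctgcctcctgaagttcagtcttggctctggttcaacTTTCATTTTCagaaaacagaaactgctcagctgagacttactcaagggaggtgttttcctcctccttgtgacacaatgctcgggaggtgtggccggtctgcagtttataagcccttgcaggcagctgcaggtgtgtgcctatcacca
Irgm (chr10:33742579-33742828, minus strand): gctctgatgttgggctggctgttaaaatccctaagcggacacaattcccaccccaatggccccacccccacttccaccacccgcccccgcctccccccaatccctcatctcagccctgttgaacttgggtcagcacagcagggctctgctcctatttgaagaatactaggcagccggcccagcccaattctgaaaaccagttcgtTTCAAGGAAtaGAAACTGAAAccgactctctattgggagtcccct
Irf1 (chr10:38417685-38417934, plus strand): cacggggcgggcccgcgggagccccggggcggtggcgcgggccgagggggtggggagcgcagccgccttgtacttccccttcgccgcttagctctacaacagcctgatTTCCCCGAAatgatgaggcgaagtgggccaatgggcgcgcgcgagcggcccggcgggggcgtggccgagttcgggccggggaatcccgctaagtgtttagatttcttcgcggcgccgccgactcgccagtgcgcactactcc

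Oas1a and Oas1b each held the same pair of overlapping ISRE cores, GAAATGGAAA and GAAACTGAAA, and the same GAS core, TTCCCAGAA. The first ISRE began 41 bases before the start in Oas1a and 59 bases before it in Oas1b. Irf7 and Rsad2 each held the core TTTCATTTTC, 69 and 147 bases before their starts. Irgm held a GAS core 45 bases before its start, followed at 34 bases by the ISRE core GAAACTGAAA. Irf1 held a GAS core, TTCCCCGAA, and no ISRE core in this window.

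Promoters of 34 of the 43 members were in the table, each of 300 bases including 50 after the start, and both strands were searched. The ISRE core was in 15 of 23 type I promoters (65.2%) and in 6 of 11 type II promoters (54.5%), against 3.92% of all 33469 promoters. The GAS core was in 6 of 23 type I promoters (26.1%) and 7 of 11 type II promoters (63.6%), against 8.87% of all. Both cores were in 7 of the 34 (20.6%, against 0.514%). The 18 tested members with an ISRE core in the window had a median log2 difference of -0.24 and the 12 without one a median of -0.18. Neither median includes the tested members with no promoter in the table. Those were Usp18 (-0.97), Isg15 (-0.85), Rtp4 (-0.74), Ifit2 (-0.47), Dhx58 (-0.46), Oas2 (-0.46) and Mx2 (-0.01), so the 2 medians leave out several of the greatest differences. These matches describe letters in a window and were not measured as binding sites.

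Genes of the ISG15 system were lower. Isg15 is a ubiquitin-like protein that is coupled to other proteins after interferon, and Usp18 removes it again and also dampens signalling at the type I receptor. The scaled intensity of Usp18, as a percent of the array's 75th percentile, was 31.3, 27.5 and 41.0 with vehicle and 15.0, 19.1 and 16.4 with treatment. All treated values lay below all vehicle values. The log2 difference was -0.97 (SE 0.17, n = 3 per group, limma adjusted p = 0.139), or 1.96-fold. The other Usp18 probes gave -0.98 and -0.61. Isg15 was at 196, 170 and 310 with vehicle and 127, 129 and 107.4 with treatment, again without overlap, and vehicle replicate 3 stood above the other 5 arrays. This was a log2 difference of -0.85 (SE 0.23, adjusted p = 0.235). Trim25, a ubiquitin ligase that acts on the RNA sensor encoded by Ddx58, differed by -0.11 with overlapping groups.

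The 2 oligoadenylate synthetases printed above differed in their readouts. These enzymes sense double-stranded RNA and make a messenger that switches on RNase L. Oas1a was at 217, 199 and 301 with vehicle and at 118, 147 and 115 with treatment, without overlap. Its log2 difference was -0.90 (SE 0.19, adjusted p = 0.164), or 1.87-fold, and its other probe gave -0.85. Oas1b was at 5377, 5709 and 6003 with vehicle and at 5582, 5398 and 5664 with treatment, which overlapped, with a log2 difference of -0.04 (SE 0.07). Oas1b had 1 probe, so no other probe bears on this value. Oasl, an OAS-like gene, was at 5.70, 3.40 and 4.20 with vehicle and at 2.68, 2.56 and 2.98 with treatment. Its log2 difference was -0.66 (SE 0.19), but -0.13 with the normexp background correction. Oas2 differed by -0.46 without overlap and Oasl2 by -0.27 with overlap.

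Among transcription factors Irf7 and Irf9 were lower without overlap and Irf1 was not. Irf7, which drives transcription of type I interferon genes, was at 337, 229 and 416 with vehicle and 135, 210 and 183 with treatment. The groups did not overlap, although vehicle replicate 2 and treated replicate 2 lay close together, and the log2 difference was -0.87 (SE 0.26, adjusted p = 0.269). Irf9, the DNA-binding partner of Stat2, differed by -0.31 (SE 0.11) without overlap and Stat2 by -0.08 with overlap. The other Irf9 probe gave -0.26 with overlap. Irf1, a factor shared by both interferon pathways, was at 407, 351 and 556 with vehicle and 443, 486 and 411 with treatment. Its log2 difference of 0.05 (SE 0.18) was close to 0 on median scaling. Irf8, a factor of myeloid cells, differed by -0.09.

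**Figure D2:**
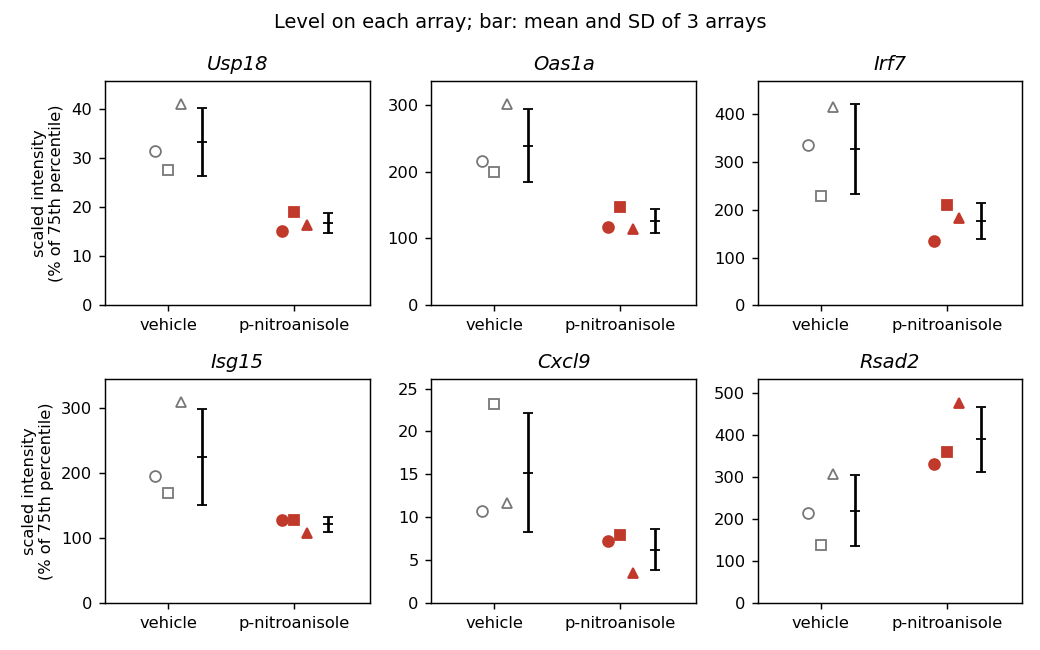
Scaled intensity (percent of the array's 75th percentile, linear axes from 0) of 6 members on each array, with the mean and SD of each group's 3 arrays beside the points. Usp18, Oas1a, Irf7, Isg15 and Cxcl9 had all treated arrays below all vehicle arrays, and Rsad2 had all treated arrays above.

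The antiviral effectors included the 1 member with non-overlapping higher values. Rsad2, also called viperin, makes a nucleotide that stops viral RNA synthesis. It was at 215, 138 and 308 with vehicle and at 331, 361 and 478 with treatment. Its log2 difference was 0.88 (SE 0.31, adjusted p = 0.321), or 1.84-fold higher, and 0.58 without vehicle replicate 2. The other probes gave 0.60 and 0.72, also without overlap. The last of these was not well above background on any vehicle array and well above it on all 3 treated arrays, which bounds its difference at 1.56-fold or more. Vehicle replicate 3 was the highest vehicle array for Rsad2 as it was for Usp18, Oas1a, Irf7 and Isg15.

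The other effectors were lower or overlapped. Mx1, a GTPase that blocks viral replication, was at 382, 360 and 506 with vehicle and at 280, 287 and 268 with treatment, a log2 difference of -0.56 (SE 0.14) without overlap. Bst2, which tethers budding virus to the cell, differed by -0.53 (SE 0.15) without overlap. Rtp4, an interferon-induced receptor-trafficking protein, was at 103, 155 and 104 with vehicle and at 48.3, 131 and 56.5 with treatment. Treated replicate 2 lay among the vehicle arrays there, and the log2 difference of -0.74 (SE 0.40) was -1.18 without that array and -0.46 without treated replicate 1. Ifi44 was at 160, 150 and 93.1 with vehicle and at 65.9, 115 and 73.8 with treatment, and also overlapped (log2 difference -0.67, SE 0.29), although 1 of its other probes, at -0.53, did not. Eif2ak2, the RNA-activated kinase that halts translation, differed by -0.10, Ifi35 by -0.19 and Ifi27 by -0.20, each with overlap. Ifi27 had a treated replicate 1 of 3732 against 1950 and 1893 on the other treated arrays.

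The tested genes of RNA-binding Ifit proteins and the sensor gene Dhx58 were lower, without overlap on the probes that stood for them. Ifit2 was at 38.0, 32.3 and 36.0 with vehicle and at 24.8, 26.3 and 25.2 with treatment, a log2 difference of -0.47 (SE 0.08, adjusted p = 0.135). Dhx58, an RNA sensor of the family of Ddx58 and Ifih1, was at 28.0, 25.9 and 27.8 with vehicle and at 20.3, 19.8 and 19.2 with treatment. The log2 difference was -0.46 (SE 0.07), and its other probes gave -0.32 with overlap and -0.29 without. Ifit3 differed by -0.58 (SE 0.16) without overlap. The other Ifit2 probe gave -0.45 with overlap and the other Ifit3 probe -0.78 without. Ifih1, which senses long double-stranded RNA, differed by -0.10 with overlap. Parp9 and Dtx3l, which form an ADP-ribosylating ubiquitin ligase complex, and Parp14 differed by -0.18, -0.08 and -0.14, all with overlap. Other Parp14 probes gave -0.01 and 0.09 with overlap and -0.26 without.

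The type II members held chemokines and GTPases beside the transcription factors Irf1 and Irf8. Cxcl9 is a chemokine that draws T cells through the receptor Cxcr3. It was at 10.75, 23.2 and 11.6 with vehicle and at 7.21, 7.95 and 3.49 with treatment, without overlap. Its log2 difference of -1.29 (SE 0.43, adjusted p = 0.303) had the greatest size of all members and was -0.56 with normexp and -2.03 within slide row 1. The other ligands of that receptor did not separate the groups. Cxcl10 was at 121, 111 and 105 with vehicle and 120, 80.4 and 107.1 with treatment (log2 difference -0.15, SE 0.16). Cxcl11 was at 98.9, 91.0 and 92.8 with vehicle and 87.7, 92.1 and 113 with treatment (log2 difference 0.04, SE 0.11, and -0.01 with median scaling).

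The GTPases of the GBP and IRG families act on the vacuoles of intracellular pathogens. Gbp5 was at 37.2, 33.7 and 33.9 with vehicle and at 28.2, 26.7 and 28.3 with treatment, without overlap. Its log2 difference was -0.33 (SE 0.07, adjusted p = 0.171), the smallest adjusted p of the type II members, and -0.20 with normexp. Irgm was at 31.5, 23.5 and 31.4 with vehicle and at 20.3, 24.8 and 21.0 with treatment (log2 difference -0.38, SE 0.15), where treated replicate 2 lay above vehicle replicate 2. Gbp2 was at 248, 210 and 284 with vehicle and at 207, 222 and 171 with treatment (log2 difference -0.31, SE 0.15, and -0.20 within slide 1). Ifi47 was at 43.8, 38.1 and 49.7 with vehicle and at 45.2, 43.7 and 25.9 with treatment. Its log2 difference of -0.23 (SE 0.24) rested on treated replicate 3 and was 0.03 without it. Igtp was at 12171, 12315 and 12401 with vehicle and at 11767, 11738 and 15503 with treatment, a log2 difference of 0.07 (SE 0.12) that was -0.07 without treated replicate 3.

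Probes of 1 gene mostly gave like values, and those of Mx2 lay furthest apart. Of 18 members with more than 1 tested probe, 14 had all probes lower, 2 (Irf1 and Rsad2) all probes higher and 2 (Igtp and Parp14) probes of both signs. In 12 of the 18 the probes lay within 0.25 of each other in log2. The Mx2 probe that stood for the gene, as the one with the highest mean level, was at 7302, 6809 and 6969 with vehicle and at 7278, 7297 and 6365 with treatment, a log2 difference of -0.01 (SE 0.08). The other Mx2 probe, A_44_P214846, was at 11.8, 12.0 and 14.2 with vehicle and at 6.93, 5.87 and 6.19 with treatment, without overlap. This was a log2 difference of -0.998 (SE 0.11), or 2.00-fold lower, with an adjusted p of 0.0608 by limma over 41219 single probes. Both probes carry the same accession, and which of them measures Mx2 was not checked, so the value that stands for the gene is uncertain. The second Igtp probe, A_64_P092170, was at 126, 126 and 164 with vehicle and at 117, 123.3 and 104 with treatment, a log2 difference of -0.26 (SE 0.13) without overlap, against 0.07 on the first. The place of Igtp among the higher members thus depends on the probe. Over single probes, 53 of the 61 tested were lower, 25 had groups that did not overlap on the lower side (against 10.4% of all probes) and 3, all of Rsad2, on the higher side. Of those 3, A_44_P370190 was tested only through the treated group, being well above background on no vehicle array. None of the 61 was called.

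**Figure D3:**
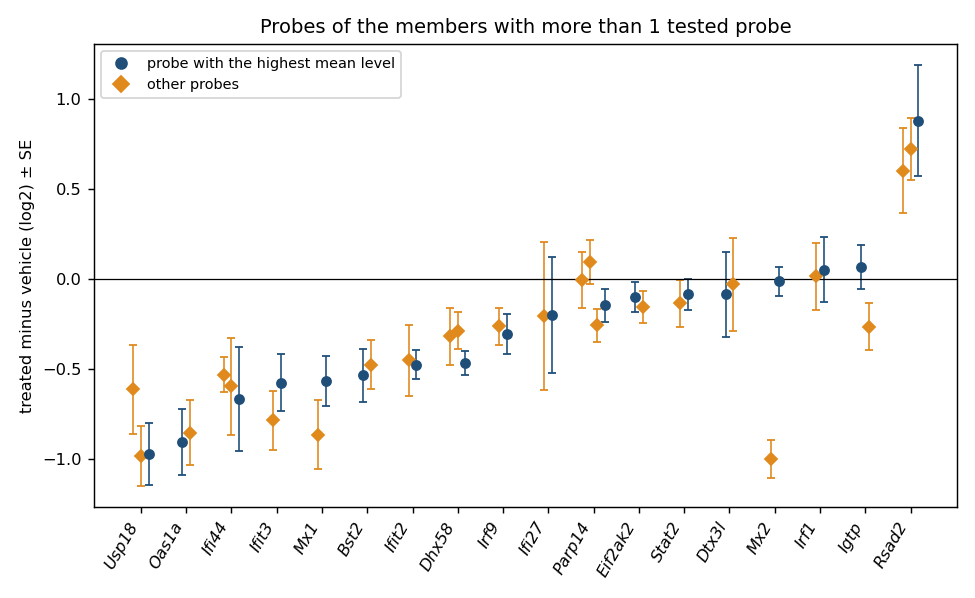
Treated minus vehicle log2 difference with its SE (vertical axis, limma over every probe) for each tested probe of the 18 members with more than 1; blue circles are the probes that stood for the gene and orange diamonds the others. The Mx2 probes lie at -0.01 and -0.998, and the 3 Rsad2 probes between 0.60 and 0.88.

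Genes that lie upstream of the members were described from fixed lists. Of the interferon genes, Ifnb1, Ifna2, Ifna5, Ifnk and Ifng, and of the receptors Ifnlr1, had probes that were not well above background on all arrays of either group. In 5 tested genes of ligands and receptors 4 were lower, with a median of -0.07 and 0 called. Ifngr1, the ligand-binding subunit of the type II receptor, was at 713, 634 and 601 with vehicle and 535, 565 and 504 with treatment (log2 difference -0.28, SE 0.09, adjusted p = 0.298), without overlap. Il10rb, a receptor subunit of type III interferon, differed by -0.12 without overlap and Ifna4 by 0.09 with overlap, so 2 of the 5 did not overlap on the lower side (against 10.3% of all rows). Of 11 JAK-STAT and feedback genes 7 were lower (median -0.04, 0 called). Socs1 and Socs3 are inducible inhibitors of cytokine receptors. Socs3 was at 24.1, 23.7 and 24.4 with vehicle and at 28.0, 31.1 and 34.4 with treatment (log2 difference 0.37, SE 0.09, adjusted p = 0.205), while Stat3 differed by 0.19 (SE 0.15) with overlap. Socs1 differed by -0.70 (SE 0.41) with overlap, but was well above background on 2 of the 3 treated arrays and passed the filter through vehicle alone. Of 10 tested genes of nucleic acid sensing 6 were lower (median -0.08, 0 called), with the RNA sensor Tlr3 at -0.48, the kinase Ikbke at -0.31 and the adaptor Myd88 at -0.13. With the lowest-level probe of each gene the medians of the ligand and receptor list and of the sensing list were 0.04 and 0.01.

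Other interferon-induced genes outside the member list were also measured. Of 26 tested type I targets 16 were lower, with a median of -0.09, and 6 did not overlap on the lower side (23.1%, against 10.3% of all rows) and 2 on the higher side (against 11.9% of all rows). Zc3hav1, which marks viral RNA for decay, was at 5.16, 4.43 and 4.59 with vehicle and at 2.64, 2.37 and 2.94 with treatment (log2 difference -0.84, SE 0.11, adjusted p = 0.0890). It is 1 of the 6 without overlap on the lower side, but was well above background on 2 of the 3 treated arrays. It thus passed the filter through vehicle alone. Oas3 differed by 0.54 (SE 0.34) and Ifi27l2b by -0.47 (SE 0.19). Of 11 tested type II targets 6 were lower, with a median of -0.0030, and 0 separated the groups in either direction. Among these Nos2 differed by 0.36, the class II transactivator Ciita by -0.15 and Cd74 by 0.13. The 7 tested genes of MHC class I processing were all lower (median -0.35), all with overlapping groups, with Tap2 at -0.89 (SE 0.38), Psmb8 at -0.51 and Tap1 at -0.48. The list of NF-kB targets had 7 of 10 higher (median 0.17), with the chemokines Cxcl1 at 1.09, Ccl2 at 0.97 and Ccl20 at -0.76, all without overlap. Of the 10, 2 did not overlap on the higher side (against 11.9% of all rows) and 1 on the lower side (against 10.3%). In each of these 4 lists 0 genes were called.

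Markers of T cells, NK cells and macrophages were mostly lower beside the interferon-stimulated genes. Neutrophil markers were higher in 4 of 4 tested (median 1.01), though Csf3r differed by 0.03 with overlap. Dendritic cell markers were higher in 3 of 4 tested (median 0.16). All 8 tested T cell markers were lower (median -0.37), of which Cd3e and Cd5 passed the filter on dim probes through vehicle alone. Lower too were 5 of 6 NK and cytotoxic cell markers (median -0.35) and 11 of 13 macrophage markers (median -0.34), with 0 called in these 3 lists. Ncr1, Klrc1, Cd163 and Itgam were too dim to test, as were Cxcr2, Elane and Ltf of the neutrophil list and Xcr1 of the dendritic cell list. The summed level of the T cell markers was 1.57 to 2.00 times the 75th percentile with vehicle and 1.29 to 1.99 times with treatment, and that of NK markers 2.07 to 2.47 and 1.94 to 2.36 times. That of macrophage markers was 108 to 127 with vehicle and 84.7 to 98.2 with treatment, without overlap, but Lyz2 made up most of it. Without Lyz2, left out after the data were seen, the sum was 39.6 to 47.0 with vehicle and 27.9 to 39.8 with treatment, which overlapped. Cd3g differed by -0.51 with overlap. Cd3e (-0.67) and Cd5 (-0.48) also overlapped, and were well above background on 2 and 1 of the 3 treated arrays, so that their differences are partly set against background. Gzmb differed by -0.999 without overlap, Gzma by -0.51 and Prf1 by -0.37. Fcgr3a was 2.00-fold lower with overlap, and in log2 Aif1 differed by -0.49 with overlap and Mrc1 by 0.52 without. Of the 13 macrophage markers, 3 did not overlap on the lower side (against 10.3% of all rows). On the higher side 1, Mrc1, did not overlap (against 11.9% of all rows). In bulk cortex, fewer cells of a type and less RNA per cell cannot be told apart. The part of these cells in the lower interferon-stimulated genes was not tested.

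The vehicle arrays did not rank alike for these lists. The treated arrays did for type I members, T cells and macrophages, with replicate 3 lowest and replicate 2 highest. On treated replicate 2 the T cell median was 0.20, at the top of the vehicle range of -0.18 to 0.20, while the type I median on the same array was -0.21, below all vehicle arrays. On treated replicates 1 and 3 the T cell medians were -0.44 and -0.63 and the type I medians -0.43 and -0.50. The macrophage medians were -0.37, -0.06 and -0.50 on the 3 treated arrays, and the middle one lay inside the vehicle range. The NK and cytotoxic cell medians were 0.20, -0.12 and -0.11 on the vehicle arrays. On treated replicates 1, 2 and 3 they were -0.02, -0.45 and -0.62, the last 2 below all vehicle arrays. Within slide 1, which leaves out treated replicate 3, the median of all members was -0.24. Within the first slide row, where treated replicate 3 was the 1 treated array, it was -0.45.

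**Figure D4:**
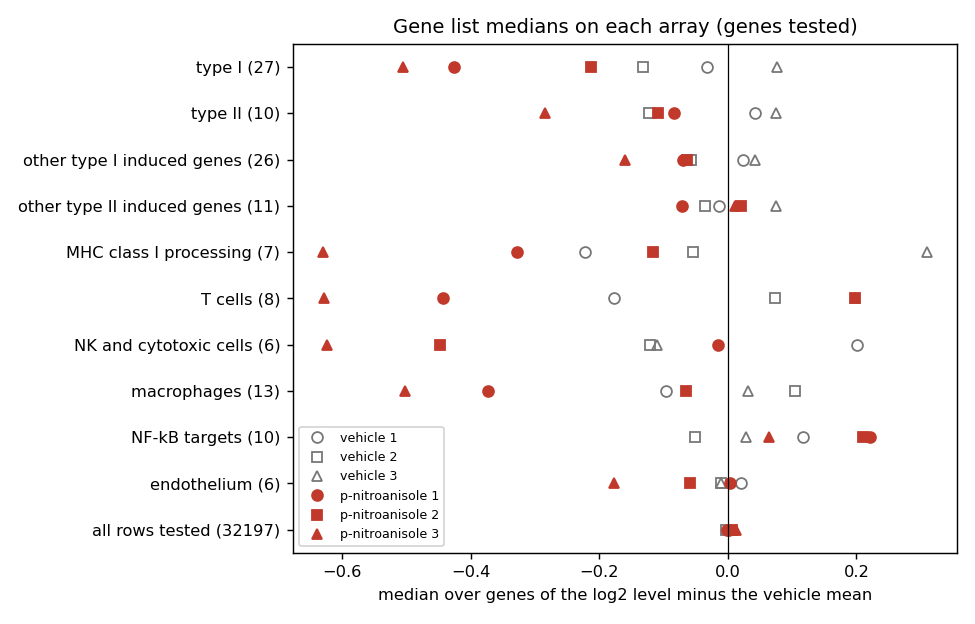
Median over the tested genes of each list (number in brackets) of the log2 level minus the vehicle mean, on each of the 6 arrays; open grey symbols are vehicle arrays and filled red symbols treated arrays. For type I members all 3 treated arrays (-0.21 to -0.50) lie left of the vehicle arrays. Treated replicate 2 lies at 0.20 for T cells, at -0.06 for macrophages and at -0.45 for NK and cytotoxic cells.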

How the data were processed

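The authors deposited scanner files of Agilent Feature Extraction 10.7 (per the submitters' processing notes), whose processed intensity is not scaled between arrays. The series matrix holds linear values that equal a ratio of this deposited intensity to 1 constant per array (to within 0.0050%) and was used as an alternative. Processed intensities were floored at 1, put on a log2 scale and centred on the 75th percentile of the array's non-control probes (877 to 1022), and left out where flagged as outliers (0 to 4 spots per array). Testing required that the 3 arrays of either group all be well above background, and a named gene was represented by its brightest tested probe on average. Symbols came by accession from a RefSeq table of GRCr8, which named 28206 probes (45.8%). The comparison used lmFit and eBayes of limma 3.58.1 (R 4.3.3; two-sided, Benjamini-Hochberg over 32197 rows, threshold 0.05), and the procedure was tested on simulated data. Fold changes are ratios of geometric means. The number of arrays limits the precision. P-values measure the spread between these animals and their arrays, and do not separate treatment from array position. Brightness differs between probes for reasons other than transcript number, so probe levels were ranked only to choose a gene's probe, and summed levels of marker lists are weighted to bright probes.

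The members and lists were chosen with earlier results of these data known. Arrays were grouped by their titles. Values on every array are given for the 8 type I and 5 type II members with the greatest differences and for members that were higher, and for lists the called genes or up to 3 with the greatest differences. Other genes given array by array, including Oas1b, the second Mx2 and Igtp probes, Mx1, Ifit2 and Dhx58, were chosen after their values were seen. Alternatives were median or quantile scaling, the deposited matrix, other filters and probe choices, a trended robust variance, slide, slide row and replicate number, leaving out each array, and a threshold of 0.01. Normexp on median spot signals (offset 50; the files hold no mean signal) and the lowest-level probe were added after the files were seen. Some results are not reported here.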

Additional observations from a re-analysis of the deposited data

How the results depend on the processing

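No setting called a member: the count was 0 under each of the 21 alternatives. The count of all rows called, 24, was 0 at a threshold of 0.01, 3 with the lowest-level probe, 14 with the mean of the probes, 2 with no filter, 85 with normexp, 316 with a trended robust variance, 9 within slide 1, 0 within slide row 1 (6627 rows at an unadjusted p under 0.05 by limma) and 0 to 9 when leaving out single arrays. The 1 gene called among the pathway and cell type lists, S100a8, became 2 with normexp and with the trended robust variance and 0 at 0.01, with the lowest-level probe, the mean of the probes, no filter, quantile scaling, within slide 1, within slide row 1 and when leaving out any array. With every probe as its own row, 53 of 61 probes of members were lower and 25 did not overlap. Of the 37 members, 14 did not overlap on the lower side (10.3% of all rows), which became 26 within slide row 1 (32.1% of all rows, with 1 treated array) and 15 to 22 when leaving out single arrays (14.6% to 16.8% of all rows).

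The median of the members was -0.45 and the type I median -0.50 within slide row 1. The type II median ran from -0.32 to -0.13 when leaving out single arrays. Medians of all members under the other settings stayed between -0.34 and -0.20.

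Signs turned in members near 0. With median scaling Irf1 was at -0.0027 and Cxcl11 at -0.013. With normexp Irf1 was at -0.0069 and Mx2 at 0.011. Igtp was at -0.098 with the mean of its probes and at -0.26 with the lower one. Within slide 1 Ifi47 was at 0.027, Igtp at -0.065, Cxcl11 at -0.068 and Mx2 at 0.053. Mx2 was at 0.0088 with slide as a random block and Irf1 at -0.065 within slide row 1. Leaving out single arrays gave -0.045 to 0.053 for Mx2, -0.094 to 0.24 for Irf1, -0.078 to 0.0017 for Oas1b, -0.38 to 0.027 for Ifi47, -0.065 to 0.14 for Igtp and -0.068 to 0.11 for Cxcl11. The cause was not tested. Normexp on mean spot signals was planned and not run, since the files hold median signals.

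Same-numbered arrays did not deviate together (correlations -0.0088, 0.040 and -0.010 for replicates 1, 2 and 3), so the labels give only a number. With the replicate block 1 row was called over all genes, and 0 among the members and among the lists.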

Other observations

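Within groups the arrays were ordered unevenly over the members. Vehicle replicate 3 was the highest vehicle array for 20 of the 37 tested members (54.1%, against 35.0% of all rows) and vehicle replicate 2 the lowest for 24 (64.9%, against 33.7%). Treated replicate 2 was the highest treated array for 22 members (59.5%, against 35.6%).

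Lists of other cell types ran differently. Neutrophil markers were higher in 4 of 4 tested genes (median 1.01), with S100a8 called at a log2 difference of 1.78 (SE 0.16, limma adjusted p = 0.0453). Of the other neutrophil markers Csf3r differed by 0.03 with overlap, and Cxcr2, Elane and Ltf were too dim to test. Dendritic cell markers were lower in 1 of 4 (median 0.16), with Batf3 at -0.43, Zbtb46 at 0.29 and Clec9a at 0.19. Endothelial markers were lower in 4 of 6 (median -0.08), with Emcn at -0.19, Tek at -0.13 and Kdr at -0.10. Proximal tubule markers were higher in 6 of 8 (median 0.04, but -0.06 with quantile and -0.01 with median scaling), with Slc22a12 at 0.80, Slc22a6 at 0.18 and Aqp1 at -0.10.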
